A study of Danio rerio with 9 samples.

Results

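The genes gata2a, hhex, mitfa and hopx encode 4 regulators of blood progenitor, pigment cell and heart development, and all 4 had higher signals in 1 of 2 zebrafish leukaemia models than in the other. They were chosen as probe sets whose platform annotation gives exactly 1 gene symbol equal to a member, and each of the 4 genes had 1 such probe set among the 8793 genes measured. They were also proposed because they were high in hMYC-ER in these same arrays, so their difference between the models is described here without a test. The labels describe the samples as green fluorescent T-lymphoblasts, sorted from the bodies of fish at the last stage of T cell acute lymphoblastic leukaemia. Each sample had 1 array. In hMYC-ER, B cell markers were higher and the T cell receptor gene trac was lower than in hlk, as given below. Whether the labelled cell type holds for the hMYC-ER samples was not tested. The hMYC-ER model, a fusion of human MYC with part of the oestrogen receptor, gave 6 of the 9 arrays, and hlk, a zebrafish line prone to T cell malignancy, gave 3. The 2 models are compared as classes, and no healthy tissue is among the samples analysed here. The labels do not state the age of the fish, any treatment with a ligand of the receptor or the promoters of the transgenes. Arrays 1 to 6 are those of hMYC-ER and arrays 7 to 9 those of hlk, as numbered by the labels. Each sample title also holds a code of its own, and the title does not say what the code stands for. The labels do not state that the arrays came from separate fish, so the spread behind every p-value may be a technical one between samples.

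The transcription factor Gata2 carries GATA-type zinc fingers and maintains blood stem and progenitor cells, and in zebrafish gata2a also acts in the vascular endothelium. Hhex is a homeodomain protein, mainly a repressor, with roles in endothelium, liver, thyroid and early blood cells. In mice it is needed for normal B cell development and is induced when Lmo2 drives T cell leukaemia. Mitfa is the zebrafish counterpart of the basic helix-loop-helix leucine zipper factor MITF, and fish that lack it have no melanophores, the black pigment cells. In mammals MITF also acts in mast cells and osteoclasts. Hopx is a very small homeodomain protein that does not bind DNA itself and restrains serum response factor through histone deacetylases, best known from the growing heart.

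Signals were compared on the log2 scale after quantile normalization, with a floor at 4 on that scale, below which dim signals were not told apart. The median deposited signal per array ran from 88.9 to 110.3. The ratio of the 3' to the 5' probe set of the gapdhs control, which is low where RNA is intact, was 50.8 on hlk array 7 and between 2.201 and 4.50 on all others, so list counts are also given without array 7. A batch that followed the models cannot be told apart from them. In these bulk samples, fewer cells that express a gene and less RNA per cell cannot be told apart.

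The progenitor factor gene gata2a had deposited signals of 878.1, 807.9, 740.8, 902.0, 711.0 and 407.9 on hMYC-ER arrays 1 to 6. On hlk arrays 7, 8 and 9 its signals were 6.41, 8.89 and 4.50, all under the floor of 16. The mean log2 signal was 9.47 ± 0.42 (SD, n = 6) for hMYC-ER, and the gene lay at the floor on all 3 hlk arrays. That is a fold of at least 44.5 towards hMYC-ER, where the highest signals were on arrays 4 and 1 and the lowest on array 6.

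For the homeobox gene hhex the models lay in the same order, with a smaller step. Its deposited signals were 260.4, 173.5, 128.3, 94.9, 174.3 and 135.7 on hMYC-ER arrays 1 to 6. They were 13.4, 10.4 and 5.06 on hlk arrays 7, 8 and 9. The log2 signal was 7.21 ± 0.52 (SD, n = 6) in hMYC-ER, and with all 3 hlk arrays at the floor the gene was at least 9.28-fold higher. Array 1 was the highest and array 4 the lowest of the hMYC-ER arrays, and the signal on array 4 lay below that array's median of 104.9.

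The pigment cell regulator mitfa had deposited signals of 2117, 3719, 2904, 5079, 1474 and 2658 on hMYC-ER arrays 1 to 6. In hlk its signals were 59.6 on array 7, 8.83 on array 8 and 13.8 on array 9. Log2 signals averaged 11.46 ± 0.66 (SD, n = 6) against 4.61 ± 1.06 (SD, n = 3) and thus lay 6.85 apart. Of the hlk arrays only array 7, the one with the high gapdhs ratio, lay above the floor, at 5.83, and the part of RNA quality in that value was not tested. Without array 7 the difference was 7.46.

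For hopx, the homeodomain-only gene, the deposited signals were 1553 on hMYC-ER array 1 and 8601, 6531, 7940, 6552 and 8321 on arrays 2 to 6. On hlk arrays 7, 8 and 9 they were 30.2, 52.1 and 12.5. The means were 12.49 ± 0.95 (SD, n = 6) and 4.75 ± 0.80 (SD, n = 3) on the log2 scale, a difference of 7.74. One of the hMYC-ER arrays stood low for this gene, and the other 5 lay within 12.66 to 13.04.

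The groups did not overlap for any of the 4 genes. The lowest hMYC-ER array exceeded the highest hlk array by 4.66 for gata2a, 2.54 for hhex, 4.68 for mitfa and 4.98 for hopx on the log2 scale. Of all genes, 23.1% had groups that did not overlap and 10.7% did so with hMYC-ER higher. The members were picked for this contrast, so nothing is read from their count. Ordered by the difference among 8793 genes, hopx was at place 4, mitfa at 10, gata2a at 24 and hhex at 137, where the floor limits the values of gata2a and hhex. The plot of the 4 genes by array shows both groups apart for every gene.

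**Figure D1:**
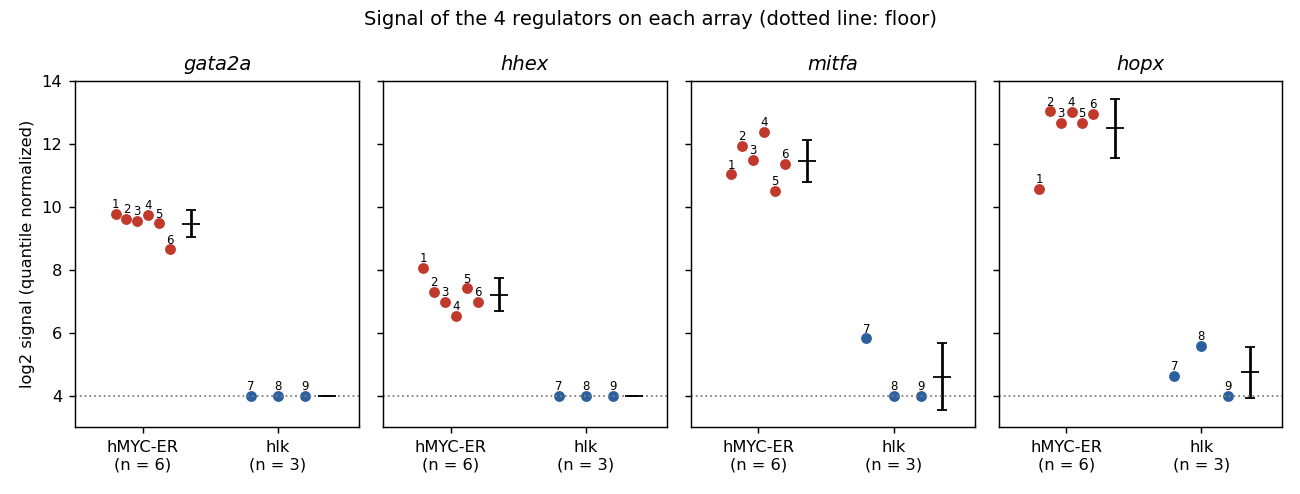
Log2 signal of gata2a, hhex, mitfa and hopx on each array, with array numbers beside the points, the mean and SD of each group as bars and the floor as a dotted line. All 6 hMYC-ER arrays lie above all 3 hlk arrays in each panel, gata2a and hhex are at the floor on every hlk array, and hopx is low on hMYC-ER array 1.

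Within hMYC-ER the 4 genes did not share one order of the arrays. Array 1 had the highest hhex value, 8.06, the highest gata2a value, 9.78, and the lowest hopx value, 10.58. Array 4 had the lowest hhex value, 6.54, and the highest mitfa value, 12.38, while array 5 had the lowest mitfa value, 10.51. The SD among the 6 hMYC-ER arrays was above the median SD of all genes, 0.33, for each of the 4.

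Single arrays set much of that spread for 3 of the genes. Without array 1 the SD of hopx over the other 5 hMYC-ER arrays was 0.19, against 0.95 with it. For gata2a the SD was 0.13 without array 6, against 0.42 with it. For hhex it was 0.34 without array 1, against 0.52. The gapdhs 3' to 5' ratio of array 1 was 4.50, the highest of the hMYC-ER arrays, which otherwise ran from 2.24 to 2.77, and its part in the hopx value was not tested. For mitfa the SD was 0.70 without array 1 and 0.74 without array 6, against 0.66 with all 6 arrays. Neither was an extreme for mitfa, which was lowest on array 5 and highest on array 4. Its SD without arrays 4 or 5 was not computed, so mitfa is not set against the other 3 genes here.

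Among other regulators of blood stem and progenitor cells, the myeloid and B cell factor spi1b and the LIM-only genes lmo4b and lmo2 were higher in hMYC-ER, while the T cell factors gata3 and runx3, the Polycomb gene bmi1a and the ETS repressor gene etv6 were higher in hlk. Of 53 listed genes besides the members, 35 were measured. In limma 4 of these were called towards hMYC-ER and 6 towards hlk, and 25 did not pass an adjusted p of 0.05, a call rate of 28.6% against 22.0% of all genes. The list's median difference was -0.23, beside -0.08 for all genes. Leaving out the doubted array 7 gave 4 calls towards hMYC-ER and 9 towards hlk, and the list median was then -0.35. Some of these calls recur in other lists below. The gene spi1b is also counted among the B cell markers, runx3 and gata3 among the T cell markers, and gata3 among the paralogues.

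The gene lmo2 encodes the bridging protein of the GATA and Tal1 complex in blood progenitors. Its log2 signal was 8.16, 8.15, 7.14, 8.19, 6.48 and 7.46 on hMYC-ER arrays 1 to 6 and at 5.88, 4 and 5.81 on hlk arrays 7, 8 and 9. All hMYC-ER values lay above all hlk values, and the difference was 2.37 (SE 0.54, adjusted p 0.0150). Its usual partner tal1 was at or near the floor on all arrays, with a highest value of 4.11, so that no level could be compared.

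The gene spi1b, which encodes the PU.1 factor, differed by 5.28 (SE 0.29, adjusted p 9.9e-06) between means of 11.23 ± 0.36 (SD, n = 6) for hMYC-ER and 5.95 ± 0.56 (SD, n = 3) for hlk. For the LIM-only gene lmo4b the means of 11.62 ± 0.33 (SD, n = 6) and 8.68 ± 0.63 (SD, n = 3) lay 2.94 apart (adjusted p 2.8e-04). Its paralogue lmo4a was called towards hlk, with a difference of -1.73 (adjusted p 0.0280), so the LIM-only genes did not go one way. The remaining gene higher in hMYC-ER was the homeobox gene pbx4, with a difference of 1.04 (adjusted p 0.0133), named after its value was seen.

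In the opposite direction, runx3, a Runt factor of T cells, differed by -3.52 (adjusted p 2.8e-04). The gene bmi1a, which supports self-renewal of blood stem cells in mice, differed by -1.74 (adjusted p 0.00309), and etv6, which blood stem cells need in mice, by -1.14 (adjusted p 0.00840). Several standard progenitor genes were dim in both models. The gene runx1, required for blood stem cells to arise, had means of 4.43 ± 0.54 (SD, n = 6) and 4.70 ± 0.61 (SD, n = 3). The stem cell factor receptor gene kita had means of 4.28 ± 0.47 (SD, n = 6) and 4.61 ± 0.59 (SD, n = 3). The difference of -0.43 for myb, a gene well above the floor at 9.86 ± 0.43 (SD, n = 6) against 10.29 ± 1.48 (SD, n = 3), missed the threshold (adjusted p 0.649), but passed without hlk array 7 (-1.25, adjusted p 0.0414). The plot of progenitor regulators sets these differences beside those of gata2a and hhex.

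**Figure D2:**
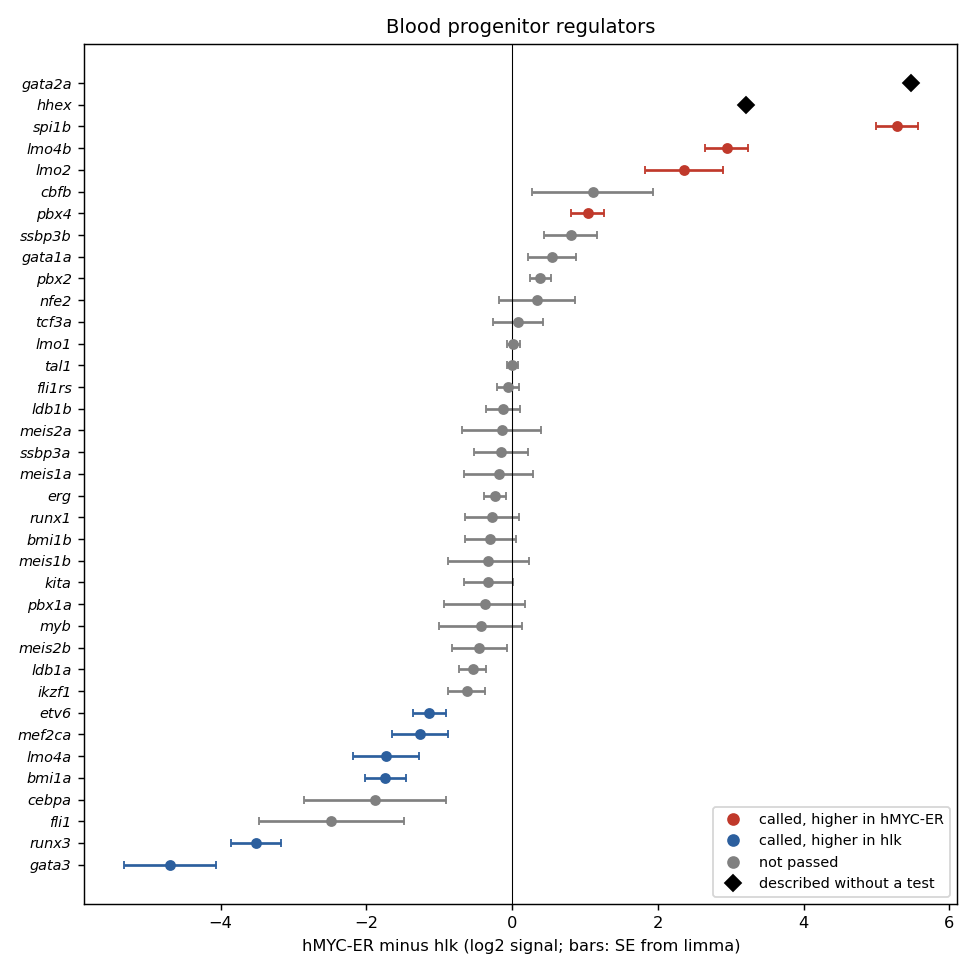
Difference between hMYC-ER and hlk in log2 signal for the 35 measured blood progenitor regulators, with SE bars from limma and colours for the calls, and for gata2a and hhex (diamonds, no test). Called genes lie on both sides of 0, from gata3 at -4.69 to spi1b at 5.28.

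Few genes of the pigment cell programme, which mitfa controls in melanophores, passed the test in either direction. Of 61 listed genes of pigment cell specification and pigment synthesis, 25 were measured. Calls were made for 1 gene towards hMYC-ER and for 1 towards hlk, and 23 did not pass, so 8% were called against 22.0% of all genes. Most of the list was dim, with 4 genes above the array median on all hMYC-ER arrays and 4 on all hlk arrays. The part of dim signals in the low share was not tested. The list's median difference was -0.23. Without hlk array 7 the only call was 1 gene towards hlk, and the list median was 0.

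The gene for tyrosinase, tyr, the first enzyme of melanin synthesis, lay above the floor on 1 of the hMYC-ER arrays, at 4.07 on array 2. In hlk it was at the floor on arrays 8 and 9 and at 5.29 on array 7. The gene pmelb, for a structural protein of melanosomes, was at the floor on all 6 hMYC-ER arrays and at 4.92 on hlk array 7. The dopachrome tautomerase gene dct differed by -0.23 (adjusted p 0.774) between means of 5.60 ± 0.48 (SD, n = 6) and 5.83 ± 1.11 (SD, n = 3). For each of these melanin genes the 2 models overlapped.

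The neural crest factor gene sox10, which activates mitfa in zebrafish pigment cell precursors, had means of 5.10 ± 0.68 (SD, n = 6) and 5.83 ± 0.40 (SD, n = 3), which did not differ past the threshold (-0.73, adjusted p 0.245). The melanocortin receptor gene mc1r did not exceed the floor on 4 hMYC-ER and 2 hlk arrays. The Rab GTPase gene rab32a, which serves melanosome and lysosome-related organelle traffic, was higher in hlk (-1.005, SE 0.24, adjusted p 0.0181), and its call ended without hlk array 9 (-0.95, adjusted p 0.0625). The purine synthesis gene paics, listed because pigment cells of fish store purines, was higher in hMYC-ER (1.04, adjusted p 0.0332). Leaving out any array but hlk array 8 took that call away, with differences of 0.74 to 1.08 in those fits and an adjusted p of 0.110 without hlk array 9.

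**Figure D3:**
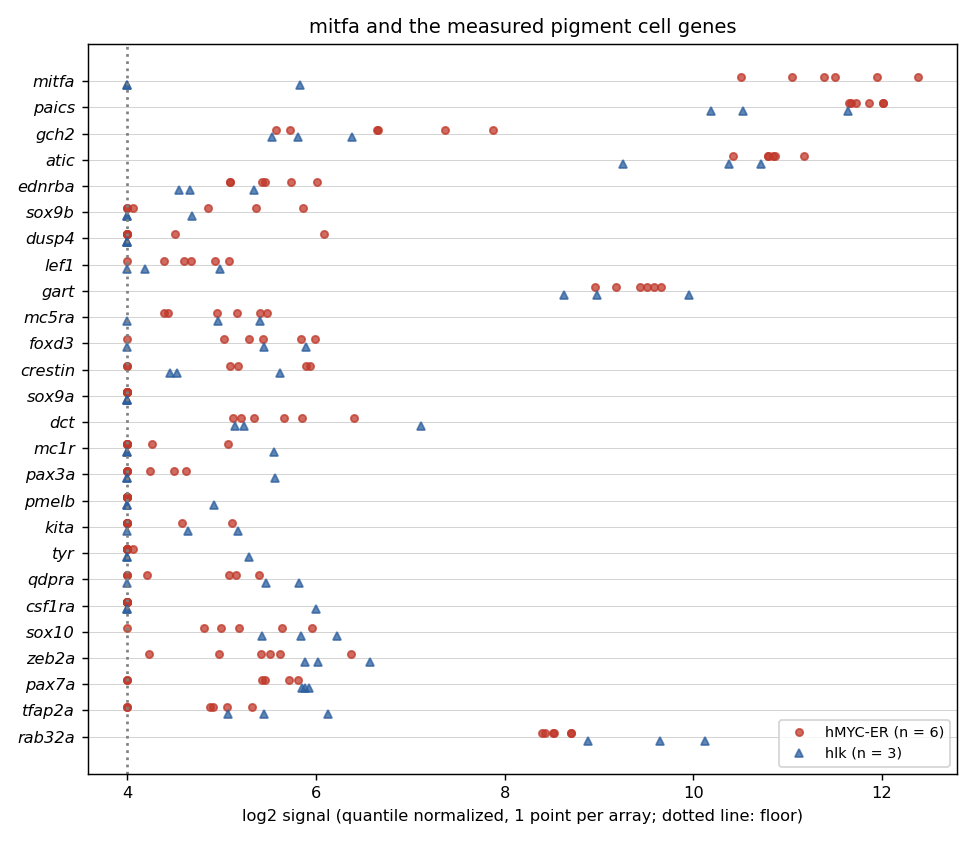
Log2 signal of mitfa and of the 25 measured pigment cell genes, 1 point per array, with hMYC-ER as circles, hlk as triangles and the floor as a dotted line. The hMYC-ER values of mitfa lie between 10.51 and 12.38, whereas those of tyr and pmelb are at or near 4 in the same arrays.

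Among the paralogues of gata2a and mitfa, the T cell factor gene gata3 was higher in hlk and the others did not pass. Of 12 listed GATA and MiT/TFE genes, 7 were measured. In limma 1 of these was called towards hlk and 0 towards hMYC-ER, beside 11.6% and 10.4% of all genes, and 2 had an unadjusted p under 0.05. The genes gata2b, tfeb, tfec and tfe3b had no named probe set here. In log2 signal gata3, which specifies T cells, stood at 6.05, 5.48, 5.80, 5.53, 6.22 and 4 on hMYC-ER arrays 1 to 6 and at 11.44, 8.83 and 10.35 on hlk arrays 7, 8 and 9. The models differed by -4.69 (SE 0.63, adjusted p 0.00133), opposite in sign to that of gata2a.

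The erythroid factor gene gata1a was dim, at 4.84 ± 0.50 (SD, n = 6) and 4.29 ± 0.51 (SD, n = 3), and did not pass (0.55, adjusted p 0.294). The cardiac and endodermal genes gata5 and gata6 did not pass either, and gata4 was at the floor on all 9 arrays.

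The second zebrafish MITF gene, mitfb, had means of 4.64 ± 0.66 (SD, n = 6) and 5.90 ± 0.73 (SD, n = 3). The difference was -1.26 and missed the threshold (adjusted p 0.0806), but passed without hlk array 9 (-1.68, adjusted p 0.0464) and with arrays centred on their medians (-1.36, adjusted p 0.0486). The related gene tfe3a, a regulator of lysosome genes, differed by -0.05 (SE 0.29, adjusted p 0.931), at 7.05 ± 0.41 (SD, n = 6) and 7.10 ± 0.51 (SD, n = 3).

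Genes for proteins known to work with Hhex or Hopx went both ways. Of 39 listed partners, 21 were measured, with 3 called towards hMYC-ER, 2 towards hlk and 16 not passing, which is 23.8% called against 22.0% of all genes. The list's median difference was 0.19, and without hlk array 7 the counts were 3 and 4. Higher in hMYC-ER were the AP-1 gene jun (2.16, adjusted p 0.00406), the class II histone deacetylase gene hdac4 (1.73, adjusted p 0.0102) and lmo2, described above. Higher in hlk were the chaperone gene hspa8 (-0.68, adjusted p 0.00468) and the chromatin remodeller gene smarca4a (-0.76, adjusted p 0.00692), whose call ended in the mean of its 2 probe sets (-0.25, adjusted p 0.591).

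The class I deacetylase gene hdac1, whose mammalian relative binds HOPX, differed by -0.26 (adjusted p 0.394), at 11.89 ± 0.17 (SD, n = 6) and 12.15 ± 0.45 (SD, n = 3), and passed without hlk array 7 (-0.52, adjusted p 0.0347). The serum response factor gene srfa was near the floor in both models, with means of 4.30 ± 0.39 (SD, n = 6) and 4.29 ± 0.51 (SD, n = 3). Several heart muscle genes, among which hopx is best known, were dim as well. Of 10 measured cardiac markers, myl7 and tnnt2a had highest single values of 5.11 and 4.81, and cmlc1 and gata4 were at the floor on all 9 arrays. The cardiac actin gene actc1a was brighter, at 6.90 ± 0.42 (SD, n = 6) and 6.26 ± 1.12 (SD, n = 3), and did not pass (0.64, adjusted p 0.365). The developmental factor gene hand2 was the 1 called marker, higher in hlk by a difference of -4.66 (adjusted p 6.5e-04).

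Markers of other cells were read in the same arrays, where 10.4% of all genes were called towards hMYC-ER and 11.6% towards hlk. B cell markers were higher in hMYC-ER for 9 of 10 measured genes, and their summed linear signal ran from 61405 to 77642 in hMYC-ER and from 6106 to 9180 in hlk. The brightest were cd74a, igl1c1, cd74b and xbp1, with differences of 2.23, 7.72, 2.85 and 3.14. T cell markers, the labelled cell type, were higher in hlk for 4 of 7 measured genes. Their summed signal ran from 1727 to 3604 in hMYC-ER and from 25219 to 29363 in hlk. These sums rest largely on runx3, also listed as a progenitor regulator and on average the brightest T cell marker in both models. Its log2 signal ran from 9.47 to 11.24 in hMYC-ER and from 13.89 to 14.11 in hlk. The T cell receptor gene trac was lower in hMYC-ER, at 7.02 ± 0.95 (SD, n = 6), than in hlk, at 11.61 ± 1.32 (SD, n = 3). Over all 17 alternatives the trac difference ran from -5.33 to -2.22, and its call was kept. The fourth called gene, rag1, lost its call without any 1 of 8 arrays (adjusted p up to 0.159), but kept it without hlk array 7 (-5.96, adjusted p 0.00137). The rag1 call was also lost with signals as deposited (adjusted p 0.0584) and with the floor at 64 (adjusted p 0.0702). The other 3 T cell markers missed the threshold, and their means lay the other way. The differences were 1.25 for rag2 (adjusted p 0.566), 0.76 for tox (adjusted p 0.0881) and 0.28 for cd28 (adjusted p 0.761). Of these tox passed without hMYC-ER array 1 (0.88, adjusted p 0.0354). Over all alternatives the tox difference ran from 0.20 to 0.88, with an adjusted p of up to 0.776. For rag2 the difference changed sign without hlk array 7, to -0.50 (adjusted p 0.792). The 4 regulators were chosen as high in hMYC-ER, where the summed B cell signal was high and the summed T cell signal low. Their going together with these sums follows from that choice, and the part of cell makeup in their values was not tested.

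Pigment cells, vessels and mast cells, in which these regulators are known to act, had few measured markers and few calls. Of the listed markers, 5 of 13 were measured for melanophores and 4 of 10 for xanthophores and iridophores. For endothelium 8 of 21 were measured, and for mast cells and eosinophils 3 of 11. Of all genes 22.0% were called, so the absence of calls among so few markers says little about these cells. Of the melanophore markers 0 of 5 were called in limma, 0 had an unadjusted p under 0.05, 0 lay above the array median on all arrays of either model, and their summed signal was 117 to 200.0 in hMYC-ER and 126 to 281 in hlk. For xanthophore and iridophore markers 0 of 4 were called and 1 had an unadjusted p under 0.05, with sums of 133 to 337 and 157 to 212. Endothelial markers gave 0 of 8 called, with sums of 255 to 329 and 310 to 875, but 4 had an unadjusted p under 0.05. Without hlk array 7 flt4 (-0.71) and fli1 (-3.98) were called, towards hlk. The gene fli1 has 2 probe sets. Over all alternatives its difference ran from -3.98 to -0.98, and it was called in 2 of them. The receptor genes kdrl and tek were at the floor on 4 and on all 6 hMYC-ER arrays, whereas plvapb, flt4 and tie1 lay above it on all 6, with lowest values of 6.40, 5.24 and 4.29. The difference of -0.92 for tek (adjusted p 0.0555) passed in 5 of the alternatives, with an adjusted p of 0.0122 without hlk array 9. Of the mast cell and eosinophil markers 0 of 3 were called and 0 had an unadjusted p under 0.05, with sums of 49.3 to 124 and 68.2 to 288.

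None of the 13 erythroid and 5 thrombocyte markers was called by limma or had an unadjusted p under 0.05, with erythroid sums of 855 to 1195 and 603 to 1232. Without hlk array 7, 1 erythroid gene was called, the globin gene hbaa1 (2.32). Calls were made for 22.2% of macrophage, 28.6% of neutrophil and 20% of hepatocyte markers, against 22.0% of all genes. Of 9 macrophage markers 2 were higher in hlk, cd68 (-0.99, adjusted p 0.00103) and lgals3bp.1 (-1.005, adjusted p 0.0161), the latter not without hlk array 7 or 8 (adjusted p 0.0533 and 0.0581). Of 7 neutrophil markers, nccrp1 (2.495) and srgn (2.40) were higher in hMYC-ER, and the summed signals were 2304 to 3695 against 671 to 990.0. These sums rest mainly on nccrp1 and srgn, whose hMYC-ER means were 10.53 and 10.19, with cebp1 next at 6.11. The other 5 markers missed the threshold, with differences of -1.05 for mmp9, -0.95 for cpa5, -0.48 for cebp1, -0.36 for mpx and 0.07 for lyz. The median difference of this list was -0.36, and the granule enzyme gene mpx was at the floor on 4 hMYC-ER arrays. Of 10 markers of hepatocytes, cells in which hhex is also known to act, apobb.1 (-1.43) and fgb (-1.31) were higher in hlk, and neither passed with the floor at 1 (adjusted p 0.0621 and 0.0695) or at 64 (adjusted p 0.346 for both). Among the fits that leave out 1 array fgb passed only without hMYC-ER array 5 or hlk array 7.

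The genes with profiles most like each member were found from the root mean square difference of log2 signals over 9 arrays, after each profile was centred on its own mean. They are a description, since a gene with a similar difference between the models comes out near by construction. Nearest to gata2a were the glycine cleavage gene gcshb (0.21), spi1b (0.36), the tryptophan hydroxylase gene tph1b (0.39), arhgap35a (0.46) and syne2b (0.47). The gcshb values of 9.97, 9.72, 9.58, 10.04, 9.26 and 9.14 on hMYC-ER arrays 1 to 6 were, like those of gata2a, highest on arrays 1 and 4 and lowest on array 6.

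For hhex the nearest genes were ldlrad3 (0.27), fhl3a (0.32), the chemokine receptor gene cxcr4b (0.35), the cell death gene bik (0.39) and si:ch73-380l3.2 (0.40). The gene ldlrad3 had its highest value, 7.41, on hMYC-ER array 1 and its lowest, 6.77, on array 3, with array 4 next to it at 6.78.

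Distances were wider for the other 2 members. Nearest to mitfa were the chemokine receptor gene cxcr4a (0.52), cyfip1 (0.54), the B lineage factor gene pax5 (0.58), hhip (0.58) and plekhh1 (0.64). Nearest to hopx were plekhh1 (0.72), the thymosin gene tmsb (0.80), the B cell adaptor gene blnk (0.83), sptbn1 (0.84) and igl1c1 (0.85). The gene plekhh1, on both lists, had values of 10.35, 11.76, 10.80, 11.48, 10.31 and 11.79 on hMYC-ER arrays 1 to 6, low on arrays 1 and 5. No member was among the 5 genes nearest to another member.

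**Figure D4:**
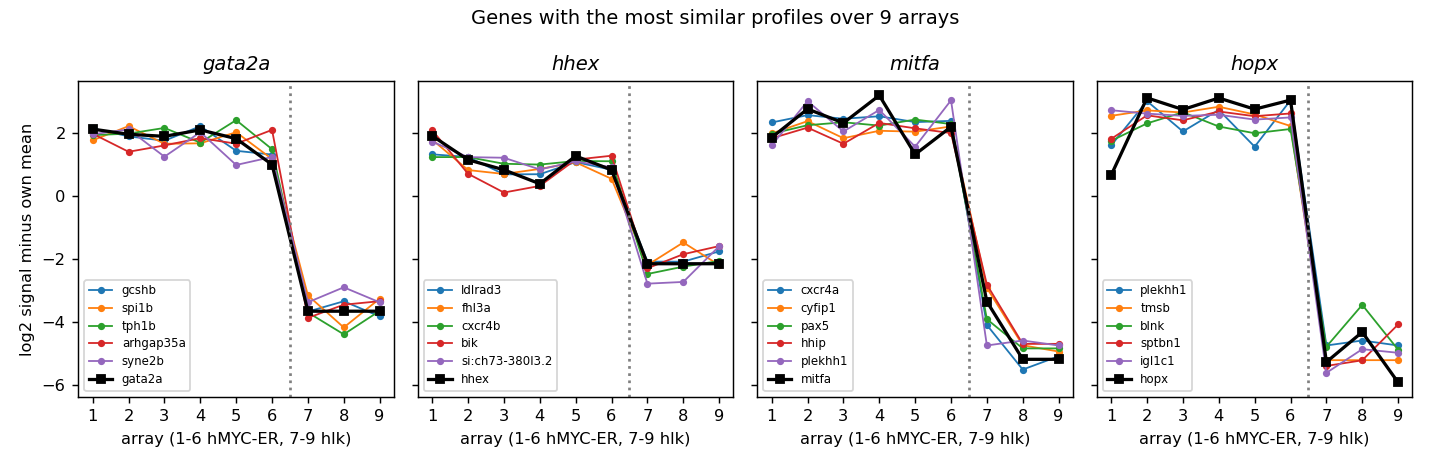
Log2 signal minus each gene's own mean on arrays 1 to 6 (hMYC-ER) and 7 to 9 (hlk) for each of the 4 regulators (black squares) and the 5 genes with the smallest root mean square difference from it. The step between the models dominates every profile, and hopx falls below its nearest genes on array 1.

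Genes beside the 4 members on the chromosome were compared next, taking the 2 nearest measured genes on each side in the gene order of assembly GRCz12tu, a set chosen by position after the other results were known. Of the 16 neighbours 2 were called towards hMYC-ER, 1 towards hlk and 13 did not pass, a share near the 22.0% of all genes. Next to gata2a, the nucleostemin gene gnl3 differed by 0.58 (adjusted p 0.0434), which no longer passed when any single one of 7 arrays was dropped or in 4 other alternatives, and the oligosaccharyltransferase gene rpn1 by 0.38 (adjusted p 0.234), which passed without hlk array 9 (0.66, adjusted p 0.0121). The gene next to hhex, fh, which encodes the Krebs cycle enzyme fumarate hydratase, differed by 1.29 (SE 0.17, adjusted p 0.00102) between means of 11.32 ± 0.15 (SD, n = 6) and 10.04 ± 0.36 (SD, n = 3).

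None of the 4 neighbours of mitfa passed in limma, 1 had an unadjusted p under 0.05, and their differences ran from -1.88 for lrrn1 (adjusted p 0.0522) to 0.79 for rybpb (adjusted p 0.227). The gene lrrn1 passed without hMYC-ER array 6 (-2.10) and without hlk array 9 (-2.33), with arrays centred on their medians (adjusted p 0.0491), with the dimmest genes left out (adjusted p 0.0262) and with an intensity trend and robust prior (adjusted p 0.0320), and rybpb passed without hMYC-ER array 5 (1.05). Next to hopx, the secretory coat gene sec24b went the other way, with a difference of -1.19 (SE 0.16, adjusted p 0.00130), and arl9 differed by 1.55 (adjusted p 0.132), passing in the mean of its probe sets (1.76, adjusted p 0.0372). At the floor of 16, each member, chosen for its difference, lay farther from 0 than any of its measured neighbours, as the plot of neighbours shows, but with the floor at 64 hhex was at 1.21 and its neighbour fh at 1.29.

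**Figure D5:**
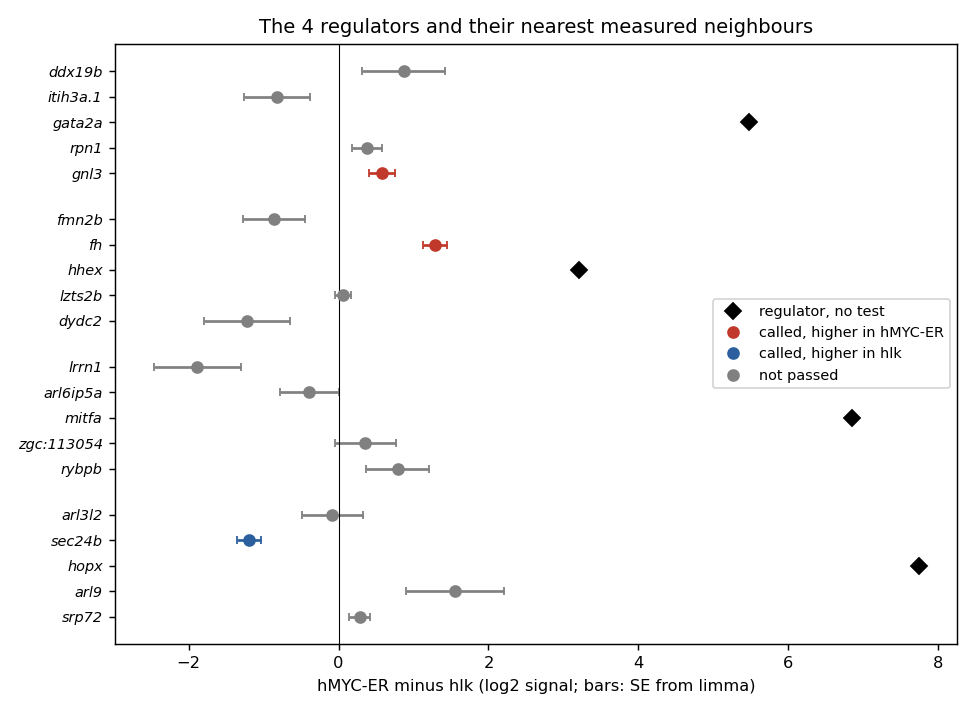
Difference between hMYC-ER and hlk in log2 signal for each of the 4 regulators (diamonds, no test) and its 2 nearest measured genes on each side in chromosome order (circles, with SE bars from limma and colours for the calls). The 16 neighbours lie between -1.88 and 1.55, while the regulators lie between 3.21 and 7.74.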

How the data were processed

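Per the labels' protocols, RNA of sorted cells was extracted with Trizol and labelled by the Affymetrix procedure from 100 ng. The deposited table holds 1 linear signal intensity per probe set and array, already scaled by the authors to a mean of 500.1 or 500.2 after trimming 2% at each end. The signal algorithm and a genome build were not given in the sources used here. Of 15617 probe sets, 115 controls were left out of the tests. Of the other 15502, 10795 had 1 gene symbol, 135 several and 4572 none. Symbols of the platform annotation were updated by Entrez identifier from a gene table of assembly GRCz12tu, which found 10711 of them and changed 1. Each of 8793 genes was represented by its brightest probe set on average.

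Array medians of log2 signal differed by 0.31 before normalization, so intensities were quantile normalized, floored at 16 and put on the log2 scale. Differences are hMYC-ER minus hlk, and they understate the change of dim genes. All genes were fitted with limma 3.58.1 (lmFit, eBayes) in R 4.3.3 with no covariate. Benjamini-Hochberg adjustment ran over all genes with a threshold of 0.05, after a trial on simulated data. In that trial 56% of 50 simulated log2 changes of 1 were found, 84% of changes of 2 and 96% of changes of 4, with 14 false calls. A change near 1 can thus be missed. A gene is called where its adjusted p is below that threshold. This called 1932 genes (22.0%), 916 (10.4%) towards hMYC-ER and 1016 (11.6%) towards hlk. Probe sets of other genes can differ, and the number of arrays limits the precision. Members and lists were chosen with earlier results of these data known. By a fixed rule, up to 6 called genes with the smallest p of each of 4 biology lists (2 genes where none was called), up to 4 genes above the array median in each of 12 marker lists, the paralogues and the 5 genes nearest to each member were named. Other genes described by their values were added after these were seen. Alternatives were the normalization, the floor, the filter on dim genes, the variance model, array weights, the mean of probe sets, and leaving out each array. Plots were made in Python 3.11.15 (matplotlib 3.10.9).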

Additional observations from a re-analysis of the deposited data

Results flagged for a closer look

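The 98 genes examined are the members, the neighbours on the chromosome and other genes described in the report or in this section. Described but not examined were lmo4a and the neutrophil markers mmp9, cpa5, cebp1 and lyz. Of the 98 genes, 18 had 1 hMYC-ER array far from the other 5 by Dixon's 95% criterion. By it chance flags about 1 in 20 groups of normally distributed values. Values held at the floor are not so distributed, so the count of 18 is not set against that rate. For hopx, array 1 stood at 10.58, and the other 5 arrays lay from 12.66 to 13.04. For gata2a, array 6 stood at 8.66 against 9.48 to 9.78. Both members were still above all hlk arrays on these arrays. Array 6 was also low for gata3, at 4 against 5.48 to 6.22. Array 1 was low for sptbn1 (12.43 against 13.02 to 13.30) and ddx19b (8.43 against 9.58 to 10.07), and was the only hMYC-ER array of lzts2b above the floor of 4, at 4.35. Array 5 was low for rybpb (4 against 5.20 to 5.92) and high for trac (8.88 against 6.26 to 6.94) and fgb (5.01 against 4 to 4.14). Array 4 was high for ctss2.2 (10.21 against 9.51 to 9.70). The other 8 were dim genes raised on 1 array. Where the other 5 arrays are at the floor, any value above it is flagged. With the other 5 arrays at the floor, array 5 stood at 4.11 for tal1, 4.44 for gata5 and 4.81 for tnnt2a, array 2 at 4.07 for tyr and array 1 at 5.11 for myl7. For mc1r array 5 stood at 5.07 against 4 to 4.26, for gata6 array 6 at 5.44 against 4 to 4.52, and for mpx array 1 at 5.19 against 4 to 4.15.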

How the results depend on the processing

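The differences of the 4 members kept their direction under all 17 alternatives that were run, and leaving out 1 array gave 5.41 to 5.64 for gata2a, 3.05 to 3.34 for hhex, 6.53 to 7.46 for mitfa and 7.36 to 8.17 for hopx. The floor sets the size for gata2a and hhex, whose hlk signals all lie below it, and bears less on mitfa and hopx. With a floor at 1 the difference was 6.97 for gata2a and 4.21 for hhex, and with a floor at 64 the differences were 3.47 for gata2a, 1.21 for hhex, 5.46 for mitfa and 6.49 for hopx. The number of called genes ran from 1565 to 1982. The pigment list had 0 to 2 called genes when 1 array was left out and 1 with array weights. The paralogue list had 1 to 2 without 1 array and 2 with arrays centred on their medians, where mitfb joined gata3. The partner list had 8 called genes with an intensity trend and robust prior, against 5. The progenitor list had 8 to 13. The cause was not tested. Of the 47 other named genes that were called, lmo4a not counted, 39 kept their call in all alternatives. Centring arrays on their medians moved the median difference of all genes from -0.08 to -0.18. No paired analysis was made, since the samples are numbered in a single run over both groups and the numbers name no pairs.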
